A study of Homo sapiens with 3 samples.

Results

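The genes described here are the well-expressed antisense genes of LNCaP, an established androgen-responsive human prostate cancer cell line. They are the autosomal rows of the raw count table that GENCODE 29 types as antisense and that averaged at least 150 reads over the 3 libraries, with COLCA1, PCA3, GAS5, ZFAS1 and names beginning SNHG left out. This gave 118 genes of the 58884 rows of the table, which held 5568 antisense rows in all. At that minimum 124 antisense rows stood before names and chromosomes were considered, and SNHG12, SNHG7, SNHG10, COLCA1, ZFAS1 and the X-linked ASMTL-AS1 were the 6 left out. Members were chosen by their mean count, so their level is a description and no result: MINCR (150.3), ZNF710-AS1 (151.0) and PAXIP1-AS2 (151.3) lay just inside, and MAFG-DT (149.7), RUSC1-AS1 (149.7) and AC109322.1 (148.7) just outside.

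The study kept LNCaP cells in 3 media: PPAT-CM, which the labels mark as tumor, PVAT-CM, marked as normal, and control-CM. The title of the series names periprostatic adipose tissue and its secreted factors; the labels do not spell out PVAT. Cells sat for 24 h in complete medium and then for 72 h in medium that was 50% of the respective CM with 2% fetal bovine serum, so all 3 groups shared the cell line, the serum and the time. Each medium had 1 library made with an mRNA kit, with no genotype or drug added. With 1 library per medium there is no replicate check and no test: ratios are given with 95% intervals that cover counting error only, and a gene counts as higher or lower in a comparison from a fixed fold.

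Library totals were 16965584 reads in PPAT-CM, 14174241 in PVAT-CM and 16534649 in control-CM. Mitochondrially encoded transcripts took 15.5% of the reads in PPAT-CM, 21.11% in PVAT-CM and 30.84% in control-CM, and ratios were therefore taken on counts scaled by edgeR's TMM factors (1.084, 1.006 and 0.9173 in the same order). All 9 prostate luminal markers examined, KLK3 among them, averaged at least 150 reads. Of other cell types, 4 of 6 adipocyte, 3 of 6 fibroblast, 3 of 7 leukocyte and 2 of 4 endothelial markers had 0 reads in all 3 libraries. The fibroblast list summed to 531 reads in PPAT-CM, 367 in PVAT-CM and 783 in control-CM, nearly all of it COL1A1 (478, 323 and 718), and the adipocyte list to 90, 27 and 13, nearly all of it PLIN1 (89, 27 and 13). The part of these reads in the results below was not tested. In such bulk libraries fewer cells of a type and less RNA per cell cannot be told apart.

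An antisense gene is transcribed from the strand opposite to another gene. Many begin at the same CpG-rich promoter as a coding gene and run the other way (divergent or head-to-head pairs), others begin inside the coding gene, and others run into its far end (tail-to-tail). Their RNAs are mostly low in level and nuclear, and divergent transcripts in particular are substrates of the nuclear RNA exosome, which the NEXT complex and its RNA-binding subunit RBM7 guide to them. Some act on the gene they overlap, others at a distance, and for most no role is known.

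Promoter windows show where such genes begin. RefSeq promoter entries (GRCh38.p14, 250 bases before to 50 bases after a start) were found for 76 of the 118 members. Of these, 3 are printed: MALINC1 and AC009779.2 because, among head-to-head members with an entry, they and their coding neighbours lay farthest to the same side in PPAT-CM against control-CM, and KMT2E-AS1, chosen after its values were seen, because it was at least 2-fold lower and both its start and that of its coding partner fall inside the window. In the windows of MALINC1 (chr5:140107963-140108262, minus strand) and AC009779.2 (chr12:55728844-55729143, plus strand) capitals mark the GC box GGGCGG on either strand, of which there are 5 and 2. In the window of KMT2E-AS1 (chr7:105014092-105014391, minus strand), which holds none of the motifs searched, capitals mark the 39 bases from the GENCODE start of KMT2E to the RefSeq start of KMT2E-AS1, both included.
MALINC1: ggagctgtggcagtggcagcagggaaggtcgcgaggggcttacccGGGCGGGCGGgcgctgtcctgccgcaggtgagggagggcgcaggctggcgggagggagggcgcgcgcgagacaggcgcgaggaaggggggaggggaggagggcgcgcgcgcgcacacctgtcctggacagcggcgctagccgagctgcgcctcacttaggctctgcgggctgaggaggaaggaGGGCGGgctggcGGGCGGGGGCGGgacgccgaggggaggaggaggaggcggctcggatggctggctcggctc
AC009779.2: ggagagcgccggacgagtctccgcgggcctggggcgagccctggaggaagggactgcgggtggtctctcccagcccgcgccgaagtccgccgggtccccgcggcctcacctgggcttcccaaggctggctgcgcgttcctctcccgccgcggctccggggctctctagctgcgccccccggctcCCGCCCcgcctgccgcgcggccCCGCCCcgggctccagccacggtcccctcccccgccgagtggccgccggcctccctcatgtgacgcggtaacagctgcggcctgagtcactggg
KMT2E-AS1: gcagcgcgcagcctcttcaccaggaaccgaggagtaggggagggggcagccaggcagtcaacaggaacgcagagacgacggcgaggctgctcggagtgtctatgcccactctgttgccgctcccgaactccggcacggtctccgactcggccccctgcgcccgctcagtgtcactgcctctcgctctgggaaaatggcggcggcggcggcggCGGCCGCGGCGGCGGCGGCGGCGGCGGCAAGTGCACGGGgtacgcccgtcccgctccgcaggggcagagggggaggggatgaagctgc

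The RefSeq start of MALINC1 lies 235 bases from the GENCODE start of PURA on the other strand, that of AC009779.2 lies 613 bases from the start of CD63, and that of KMT2E-AS1 lies 38 bases from the start of KMT2E. VLDLR-AS1 was the third pair by the same rule. Its RefSeq window sits 20986 bases from the GENCODE start of the gene, 539 bases from the start of VLDLR, and holds none of the motifs. Other windows also lay far from the GENCODE start, among them those of DHRS4-AS1 (33727 bases), GDNF-AS1 (28295) and ATP6V0E2-AS1 (6748). All were kept in the counts that follow. Over the 76 windows the GC box (GGGCGG, both strands) was found in 52, or 68.4%, against 44.9% of all 34943 RefSeq promoter windows of that length. The TATA box TATAAA was found in 2 member windows (2.63%, against 11.6% of all windows), CCAAT in 22 (28.9%, against 34.6%), the ETS core CCGGAAG in 10 (13.2%, against 10.2%) and the STAT motif TTCNNNGAA in 2 (2.63%, against 7.66%), on both strands. The NRF1 core (1.23% of all windows) was in none of the 76. A member window held a median of 28 CpG dinucleotides, against 14 over all windows. In the 51 head-to-head members with an entry, which include neighbours that do not overlap their coding gene, the median was 31. These matches describe letters in a window and do not show that a factor binds there.

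Among the 118 members, 84 shared exonic bases with a coding gene on the other strand. In 16 the spans overlapped without a shared exonic base, in 16 the nearest coding start on the other strand lay within 5 kb without overlap, and 2 (MINCR and AC006329.1) had neither. In each pair the coding gene with the most shared exonic bases was taken as the partner. Some members overlap more than 1 coding gene, and the others were not set beside them. UBA6-AS1, for instance, overlaps 4, and its partner by this rule, GNRHR, had 5 reads in PPAT-CM, 2 in PVAT-CM and 3 in control-CM. Of the 100 overlapping pairs, 52 were head-to-head, 21 tail-to-tail, 20 had the antisense gene inside the coding gene and 7 had the coding gene inside the antisense gene. Head-to-head here means that both starts lie in the shared stretch, or, for neighbours, in the stretch between the genes. It holds at any distance and does not by itself mean a shared promoter. The GENCODE starts of ATP6V0E2-AS1 and ATP6V0E2, for example, lie 7642 bases apart. CTBP1 was the partner of both CTBP1-AS and CTBP1-DT, and no other coding gene was the partner of more than 1 member. Exonic bases of a coding gene on the same strand were shared by 6 members (PSMA3-AS1, THAP9-AS1, GAS6-AS1, FAM198B-AS1, ZBED3-AS1 and AC004148.2), whose counts are uncertain for that reason.

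The 6 most abundant members all lay within 1.525-fold of control-CM in PPAT-CM. FGD5-AS1, which lies tail-to-tail with the endothelial gene FGD5, had 2752 reads in PPAT-CM, 1860 in PVAT-CM and 1781 in control-CM, and FGD5 itself had 0 in all 3 (a count of 0 allows up to 3 reads, or 0.1632 scaled CPM in PPAT-CM, 0.2104 in PVAT-CM and 0.1978 in control-CM, by counting error only). It was 1.275-fold higher in PPAT-CM than in control-CM (95% counting interval 1.2 to 1.354). AC092535.4, a single-exon gene of 397 bases in an intron of SPON2 (a secreted matrix protein), had 1497, 1379 and 1595 reads in PPAT-CM, PVAT-CM and control-CM, and was 1.292-fold lower in PPAT-CM than in control-CM (1.203 to 1.387). GABPB1-AS1, divergent from a subunit gene of the transcription factor GABP, had 1529, 1383 and 1517 reads in that order. PSMA3-AS1 had 1479, 1240 and 1532. AC092535.4, GABPB1-AS1 and PSMA3-AS1 were thus close to level in PPAT-CM and control-CM by raw reads and somewhat lower in PPAT-CM after scaling. AC069228.1, inside the liprin gene PPFIA2, had 1224, 1138 and 1540 reads. Of the 6 most abundant members it was the farthest from equal, 1.525-fold lower in PPAT-CM than in control-CM (1.414 to 1.646). ST8SIA6-AS1 had 1251, 1145 and 1060 reads, and the sialyltransferase gene ST8SIA6 around it had 4, 2 and 0. Together the 118 members took 0.2672% of the reads in PPAT-CM, 0.2878% in PVAT-CM and 0.2751% in control-CM.

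**Figure D1:**
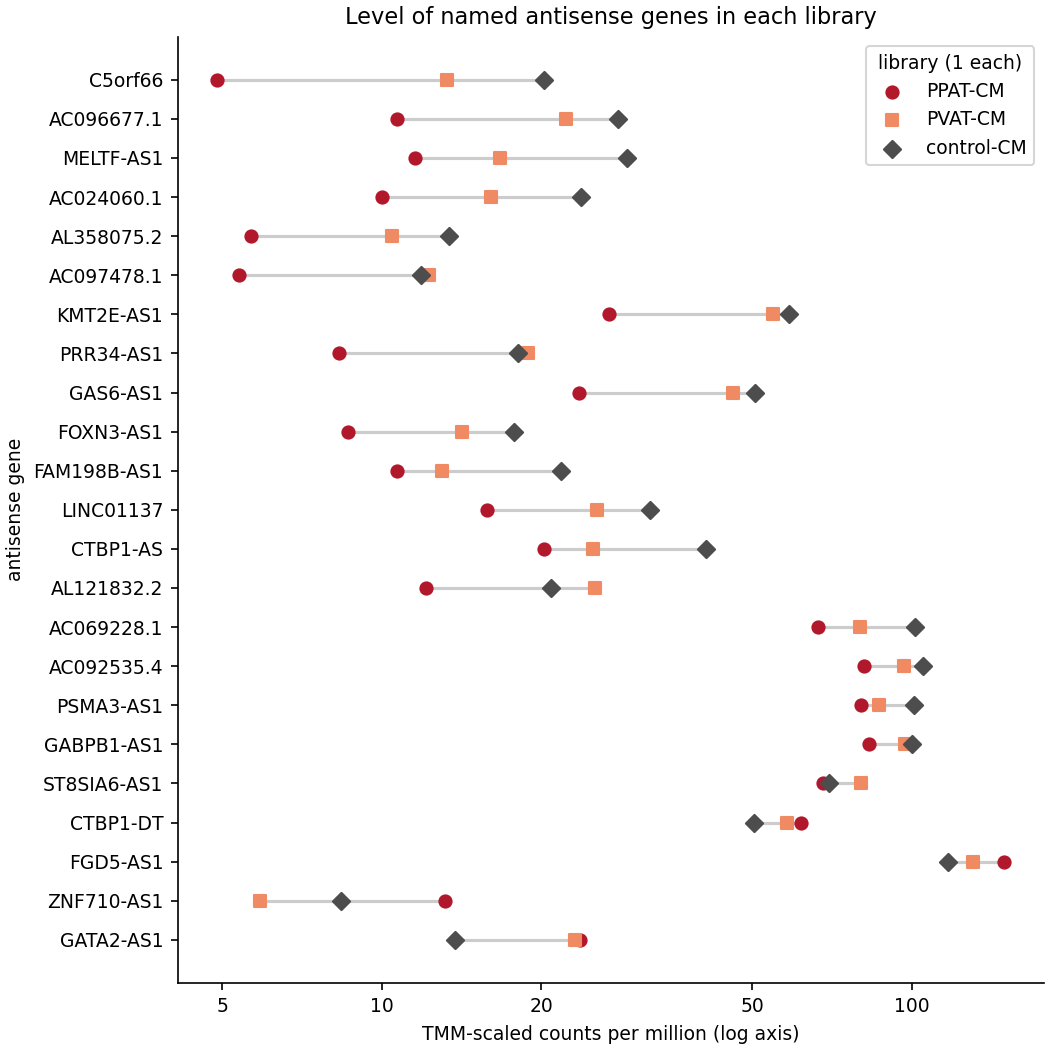
Level of 23 named antisense genes (rows) in TMM-scaled CPM on a log axis; each point is 1 library (circle PPAT-CM, square PVAT-CM, diamond control-CM) and the grey line spans the 3. The 13 genes at the top, C5orf66 (4.895 in PPAT-CM, 13.26 in PVAT-CM and 20.24 in control-CM) down to CTBP1-AS, have PPAT-CM lowest, and in GATA2-AS1 at the bottom PPAT-CM (23.71) and PVAT-CM (23.15) lie close together above control-CM (13.78).

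In PPAT-CM the antisense genes lay lower than in control-CM as a group, and most stayed within 2-fold. None of the 118 was at least 2-fold higher, where 2.99% of all 9829 genes with a mean of at least 150 reads were. Of the members, 13 were at least 2-fold lower, where 1.72% of all genes were. At 1.5-fold, 5 members were higher (all genes 10.9%) and 32, or 27.1%, were lower (all genes 6.21%). The median log2 ratio of the members was -0.24 against 0.04 for all genes, and 0.00 against 0.28 when counts were scaled by library totals alone, so the members lay 0.28 below all genes on either scale, and their own median was below 0 only with the factors that allow for composition. Scaled by totals, 3 members passed 2-fold on the higher side (all genes 6.32%) and 4 on the lower side (all genes 0.834%). On the TMM scale 81 of 118 members (68.64%) stood below 0, against 45.97% of all genes. TMM factors computed without mitochondrially encoded rows gave a median of -0.25 and again 13 members at least 2-fold lower.

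The shift was shared with other noncoding classes. The 144 long intergenic noncoding RNAs of the same minimum had a median log2 ratio of -0.21, with 10 (6.94%) at least 2-fold lower, the 11 sense intronic genes had -0.26, and the 9316 protein-coding genes 0.05. The 279 antisense genes averaging 50 to under 150 reads, which the rule did not take, had a median of -0.28, with 37 (13.3%) at least 2-fold lower, and 7 (2.51%) were higher by that fold. No difference between these classes was tested.

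**Figure D2:**
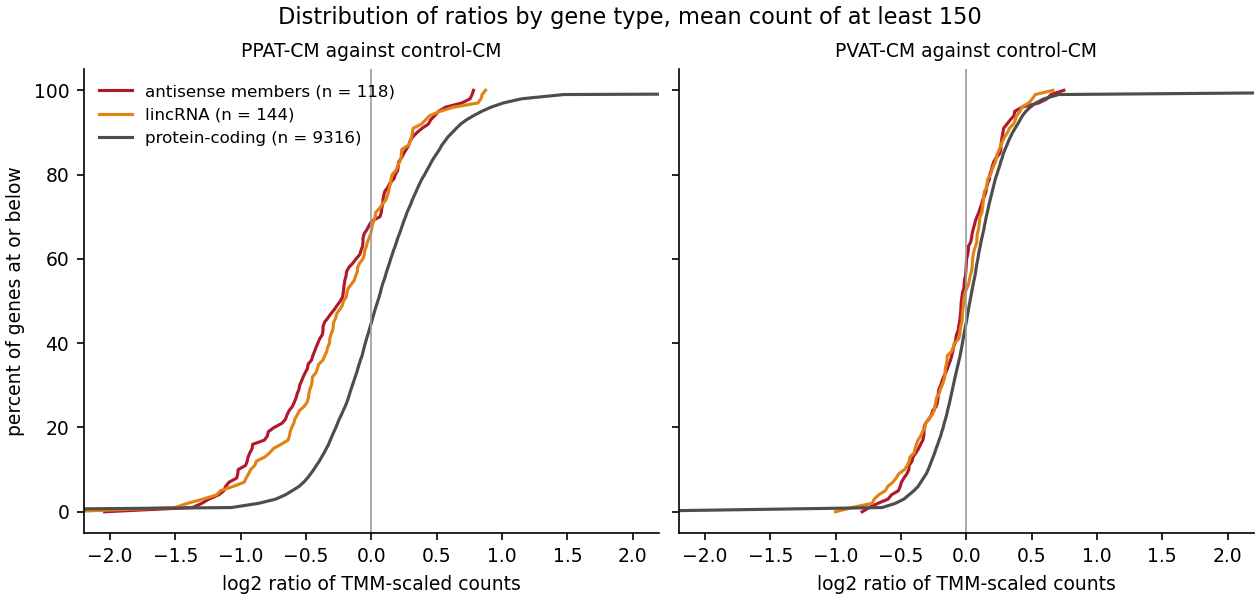
Cumulative distribution of log2 ratios of TMM-scaled counts (x axis) by gene type, in percent of genes (y axis), for PPAT-CM against control-CM on the left and PVAT-CM against control-CM on the right. On the left the antisense members (median -0.24) and lincRNA genes (-0.21) run left of the protein-coding genes (0.05); on the right the 3 curves lie closer, with medians of -0.04, -0.02 and 0.03, and the member medians become 0.00 and 0.10 with library totals alone.

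C5orf66, later named PITX1-AS1, was the lowest of all. It spans chr5:135033280-135358219 on the plus strand (GRCh38) and runs tail-to-tail into H2AFY, which encodes the histone variant macroH2A1. It had 90 reads in PPAT-CM, 189 in PVAT-CM and 307 in control-CM, so the 3 libraries lay well apart. Its level was 4.135-fold lower in PPAT-CM than in control-CM (3.259 to 5.291) and 2.709-fold lower than in PVAT-CM (2.096 to 3.521). H2AFY had 5155, 3487 and 3655 reads in PPAT-CM, PVAT-CM and control-CM and was 1.163-fold higher in PPAT-CM than in control-CM (1.115 to 1.214). The counts of the pair went to opposite sides, with a difference of -2.27 on the log2 scale (-2.63 to -1.92). Of the 6650 exonic bases of C5orf66, 4968 lie in exons of H2AFY, the most shared by any member. C5orf66 overlaps 2 coding genes on the other strand, and the one besides H2AFY was not set beside it. Of 310 antisense rows wholly inside coding exons of the other strand, 306 had 0 reads in all 3 libraries. Reads from the shared bases may thus be missing from both counts, leaving C5orf66 counted on its other 1682 bases. The size of the overlap therefore gives the opposite sides no added weight.

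The next was AC096677.1 (later CSRP1-AS1), head-to-head with CSRP1, a LIM-domain protein of the actin cytoskeleton. It had 197 reads in PPAT-CM, 318 in PVAT-CM and 423 in control-CM, 2.603-fold lower in PPAT-CM than in control-CM (2.193 to 3.098), while CSRP1 was 1.31-fold lower (1.228 to 1.397). MELTF-AS1, inside the gene of melanotransferrin, had 213, 238 and 440 reads and was 2.504-fold lower (2.122 to 2.964). Against PVAT-CM it was 1.441-fold lower in PPAT-CM (1.193 to 1.742). MELTF had 63, 54 and 62 reads, which per length of exon came to 0.4082, 0.4513 and 0.487 scaled CPM per kb, against 10.17, 14.66 and 25.47 for MELTF-AS1. AC024060.1 lies inside CRBN, the substrate receptor of a cullin ubiquitin ligase, and shares 12 exonic bases with it. It had 184, 229 and 361 reads, 2.379-fold lower in PPAT-CM than in control-CM (1.986 to 2.856), and CRBN, with 1066, 1076 and 1379 reads, was 1.568-fold lower (1.447 to 1.7).

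KMT2E-AS1 starts at the promoter of KMT2E, a SET-domain protein of chromatin, in the window printed above. It had 494 reads in PPAT-CM, 782 in PVAT-CM and 890 in control-CM. PPAT-CM alone stood low: the ratio was 2.184-fold lower against control-CM (1.954 to 2.443) and 2.042-fold lower against PVAT-CM (1.822 to 2.29). KMT2E had 1384, 1278 and 1432 reads and was 1.254-fold lower against control-CM (1.164 to 1.352), so the antisense gene lay 0.80 below it on the log2 scale (-0.995 to -0.606). PRR34-AS1 had 153, 269 and 274 reads in PPAT-CM, PVAT-CM and control-CM, 2.171-fold lower in PPAT-CM than in control-CM (1.775 to 2.664). Its coding neighbour PRR34 had 16, 9 and 5 reads, too few to set a ratio beside it. AC097478.1 had 99, 175 and 180 reads, 2.204-fold lower (1.715 to 2.846). In these 3 genes PVAT-CM and control-CM lay close together and PPAT-CM below both.

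GAS6-AS1 and its partner lay on the same side. GAS6 encodes the ligand of the TAM receptor tyrosine kinases, among them AXL, and the antisense gene shares 421 exonic bases with its far end. GAS6-AS1 had 434 reads in PPAT-CM, 656 in PVAT-CM and 769 in control-CM, and GAS6 had 380, 414 and 552. In PPAT-CM against control-CM the antisense gene was 2.148-fold lower (1.907 to 2.422) and GAS6 1.761-fold lower (1.543 to 2.012). FAM198B-AS1 (later GASK1B-AS1) and FAM198B, a Golgi-associated kinase-like protein, matched more closely. The antisense gene had 197, 185 and 331 reads and the coding gene 4524, 4602 and 7105, 2.037-fold (1.702 to 2.442) and 1.904-fold (1.834 to 1.977) lower in PPAT-CM than in control-CM, a difference of -0.10 on the log2 scale whose interval included 0 (-0.365 to 0.167). Both genes were also lower in PVAT-CM than in control-CM, by 1.682-fold and 1.451-fold. LINC01137 (later ZC3H12A-DT) starts 141 bases from ZC3H12A, an endoribonuclease that degrades inflammatory mRNAs, without overlapping it. It had 291, 364 and 487 reads in PPAT-CM, PVAT-CM and control-CM, and ZC3H12A had 762, 874 and 1321. They were 2.029-fold (1.751 to 2.354) and 2.102-fold (1.921 to 2.301) lower in PPAT-CM than in control-CM, again without a difference beyond counting error (0.05 on the log2 scale, -0.201 to 0.301).

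CTBP1 had antisense genes at both ends that lay on opposite sides. CTBP1 is a transcriptional corepressor, and CTBP1-AS has been described in prostate cancer cells as an androgen-induced RNA that lowers it. CTBP1-AS, at the far end with 810 shared exonic bases, had 372 reads in PPAT-CM, 357 in PVAT-CM and 622 in control-CM and was 2.027-fold lower in PPAT-CM than in control-CM (1.78 to 2.311). CTBP1-DT, at the promoter with 305 shared bases, had 1138, 830 and 764 reads and was 1.229-fold higher (1.12 to 1.348). CTBP1 itself, with 5635, 4698 and 6098 reads, was 1.312-fold lower (1.265 to 1.361). In PVAT-CM against control-CM the 3 genes kept these sides, CTBP1-AS 1.638-fold lower, CTBP1-DT 1.156-fold higher and CTBP1 1.22-fold lower. FOXN3-AS1, in an intron of the forkhead repressor FOXN3, had 159, 202 and 269 reads and was 2.051-fold lower in PPAT-CM than in control-CM (1.68 to 2.511), with FOXN3 1.449-fold lower. AL358075.2 had 104, 149 and 203 reads, 2.366-fold lower (1.859 to 3.027), in the span of AL358075.4, which had 0 reads in every library.

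The other 19 members at least 1.5-fold lower lay between -0.95 and -0.59 in log2 ratio. MINCR, an RNA named for its induction by MYC, had 123 reads in PPAT-CM, 137 in PVAT-CM and 191 in control-CM (1.883-fold lower in PPAT-CM than in control-CM, 1.493 to 2.381). LINC01481 (later PRANCR), whose start lies 366 bases from that of the CCR4-NOT subunit gene CNOT2, had 217, 271 and 345 reads (1.927-fold lower, 1.622 to 2.295), whereas CNOT2 had 1530, 814 and 941 and was 1.341-fold higher (1.236 to 1.456). PCAT6, named here after its values were seen because its name marks it as a prostate cancer transcript, had 316, 327 and 492 reads (1.888-fold lower, 1.635 to 2.181), and its neighbour KDM5B, a histone demethylase, was 1.05-fold higher (0.9676 to 1.14). SH3BP5-AS1, second in shared bases with 1975, had 212, 230 and 339 reads (1.939-fold lower, 1.628 to 2.313), against 42, 28 and 20 for SH3BP5. ATP6V0E2-AS1 had 213, 239 and 275 reads and was 1.565-fold lower (1.304 to 1.881), and its partner ATP6V0E2, a subunit of the vacuolar proton pump, had 1781, 882 and 829 and was 1.772-fold higher (1.631 to 1.927). Apart from MINCR, which has no partner, these are members below 0 whose coding partner or neighbour had a ratio above it.

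**Figure D3:**
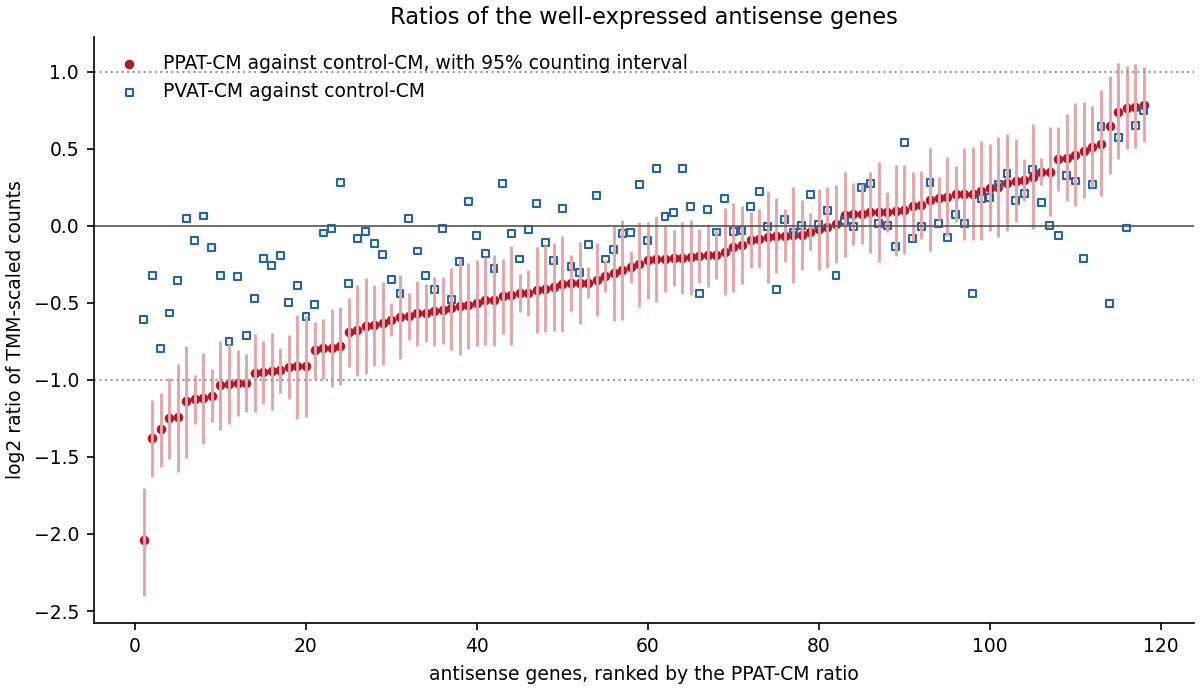
Log2 ratios of TMM-scaled counts for the 118 antisense genes, ranked by PPAT-CM against control-CM (red points with 95% counting intervals) and with PVAT-CM against control-CM as open squares; dotted lines mark 2-fold. The red points run from -2.04 to 0.78 with 13 below the lower line, and the squares from -0.80 to 0.75 with none past either line; with library totals in place of TMM factors, 4 red points are below and 3 above.

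Members higher in PPAT-CM than in control-CM were few, and the 5 at least 1.5-fold higher are all named. GATA2-AS1 (chr3:128489212-128502348, plus strand) is head-to-head with GATA2, a zinc-finger transcription factor, and shares no exonic base with it. Their starts lie 3973 bases apart. It had 436 reads in PPAT-CM, 330 in PVAT-CM and 209 in control-CM, 1.721-fold higher in PPAT-CM (1.456 to 2.039) and 1.68-fold higher in PVAT-CM (1.408 to 2.007) than in control-CM. GATA2 had 5369, 5812 and 7836 reads and was 1.769-fold lower in PPAT-CM (1.709 to 1.832) and 1.267-fold lower in PVAT-CM (1.225 to 1.311) than in control-CM. The antisense gene and GATA2 thus stood 1.61 apart on the log2 scale in PPAT-CM against control-CM (1.359 to 1.856), on opposite sides. AC009779.2 (later CD63-AS1) had 344, 245 and 166 reads and lay on the side of its partner CD63, a tetraspanin of late endosomes. The antisense gene was 1.709-fold higher (1.416 to 2.07) and CD63 1.413-fold higher (1.349 to 1.481) in PPAT-CM than in control-CM. LPP-AS2 had 355, 160 and 172 reads, 1.702-fold higher in PPAT-CM than in control-CM (1.415 to 2.055), with PVAT-CM level with control-CM. AC006329.1 (later EMSLR), which has no coding gene nearby on the other strand, had 263, 182 and 130 reads (1.669-fold higher, 1.347 to 2.075). ZNF710-AS1 had 242, 84 and 127 reads and the zinc-finger gene ZNF710 had 303, 105 and 119. They were 1.572-fold (1.263 to 1.964) and 2.1-fold (1.694 to 2.619) higher in PPAT-CM than in control-CM, the only pair with both at least 1.5-fold higher.

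In PVAT-CM the antisense genes lay close to control-CM. No member reached 2-fold on the higher side (all genes 0.153%) or on the lower side (all genes 0.142%). At 1.5-fold, 3 were higher (GATA2-AS1, AC009779.2 and AC009005.1; all genes 2.08%) and 5 were lower (MELTF-AS1, FAM198B-AS1, CTBP1-AS, C5orf66 and AL355488.1; all genes 1.8%). The member median was -0.04 against 0.03 for all genes, and 0.10 against 0.16 with library totals, so its sign depended on the scaling and its distance from all genes, 0.06, did not. On the TMM scale 69 of the 118 (58.47%) lay below 0, against 45.56% of all genes.

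PPAT-CM and PVAT-CM were also set against each other. The 3 comparisons share libraries pairwise and are not independent. Of the members 1 was at least 2-fold higher in PPAT-CM than in PVAT-CM (all genes 1.6%). At least 2-fold lower were 6, or 5.08% (all genes 0.895%), and 3 with library totals. At 1.5-fold, 4 were higher (ZNF710-AS1, LPP-AS2, SLC25A25-AS1 and CEBPA-DT; all genes 6.81%) and 22, or 18.6%, were lower (all genes 4.24%). The median was -0.22 against 0.02 for all genes, and -0.11 against 0.13 with library totals. ZNF710-AS1 was the higher one, 2.234-fold (1.736 to 2.898), beside ZNF710 at 2.237-fold (1.786 to 2.821). The 6 lower were C5orf66, AC097478.1, PRR34-AS1, AL121832.2, AC096677.1 and KMT2E-AS1. AL121832.2, whose start lies 146 bases from that of the ribosomal protein gene RPS21, was the only one of them not also at least 2-fold lower against control-CM. It had 223 reads in PPAT-CM, 361 in PVAT-CM and 316 in control-CM. Against PVAT-CM it was 2.088-fold lower in PPAT-CM (1.762 to 2.478), and RPS21 was 1.092-fold lower (1.063 to 1.122).

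Over the 3 libraries the commonest order of scaled levels was PPAT-CM below PVAT-CM below control-CM, in 56 of 118 members (47.46%), against 20.89% of all genes. The opposite order was found in 18 members (15.25%, all genes 28.26%). PVAT-CM was highest in 31 (26.27%, all genes 26.18%) and lowest in 13 (11.02%, all genes 24.67%).

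Set beside their coding partners, 1 overlapped coding gene for each member, the antisense genes mostly lay lower in PPAT-CM against control-CM than these partners. In 94 of the 100 overlapping pairs the partner had more than 3 reads in PPAT-CM or control-CM. The member ratio lay below the partner ratio in 74 of the 94, with medians of -0.26 for members and 0.13 for partners and a median difference within pairs of -0.36 on the log2 scale, a difference that the scaling does not touch. At 1.5-fold, 24 members and 7 partners were lower (all genes 6.21%), and 4 members and 13 partners were higher (all genes 10.9%). Both were lower in 4 pairs (FAM198B-AS1 with FAM198B, GAS6-AS1 with GAS6, AC024060.1 with CRBN, and MALINC1 with PURA) and both higher in 1. In 4 pairs they were at least 1.5-fold apart from control-CM on opposite sides (those of GATA2-AS1, ATP6V0E2-AS1, PRR34-AS1 and SH3BP5-AS1). PRR34 and SH3BP5 had few reads, and the intervals of their ratios included 1 (0.924 to 9.213 and 0.9946 to 3.114). Among pairs whose partner averaged at least 150 reads, 2 were on opposite sides. How many such pairs the separate counts would give by themselves was not worked out. MALINC1, a mitosis-associated RNA, had 202 reads in PPAT-CM, 174 in PVAT-CM and 251 in control-CM (1.506-fold lower in PPAT-CM than in control-CM, 1.247 to 1.822), and PURA, a nucleic acid-binding protein, had 1371, 1301 and 1727 (1.527-fold lower, 1.422 to 1.641). Across the 94 pairs, which all share these libraries, the ratios of member and partner had a Pearson r of 0.236 and a Spearman rho of 0.305.

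Where the partner averaged at least 150 reads, in 78 pairs, the member lay below in 61 and the median difference was again -0.36; r was 0.359 and rho 0.366. In PVAT-CM against control-CM the member lay below its partner in 52 of 91 pairs (median difference -0.11), and in PPAT-CM against PVAT-CM in 66 of 94 (-0.27). In some pairs the coding gene was higher in PPAT-CM than in control-CM and the antisense gene was not, or less so. DENND1C, a DENN-domain gene, had 324 reads in PPAT-CM, 159 in PVAT-CM and 99 in control-CM (2.7-fold higher in PPAT-CM than in control-CM, 2.149 to 3.416), whereas AC010503.4 inside it had 494, 431 and 386 (1.056-fold higher, 0.9222 to 1.209). ELF3, an epithelial ETS factor, and ELF3-AS1, named after their values were seen, had 1851, 597 and 547 reads and 509, 280 and 311, which came to 2.791-fold (2.536 to 3.076) and 1.35-fold (1.17 to 1.56) higher in PPAT-CM than in control-CM. PSMA3, a proteasome subunit, was 1.425-fold higher (1.337 to 1.519) and PSMA3-AS1 1.256-fold lower (1.168 to 1.35).

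**Figure D4:**
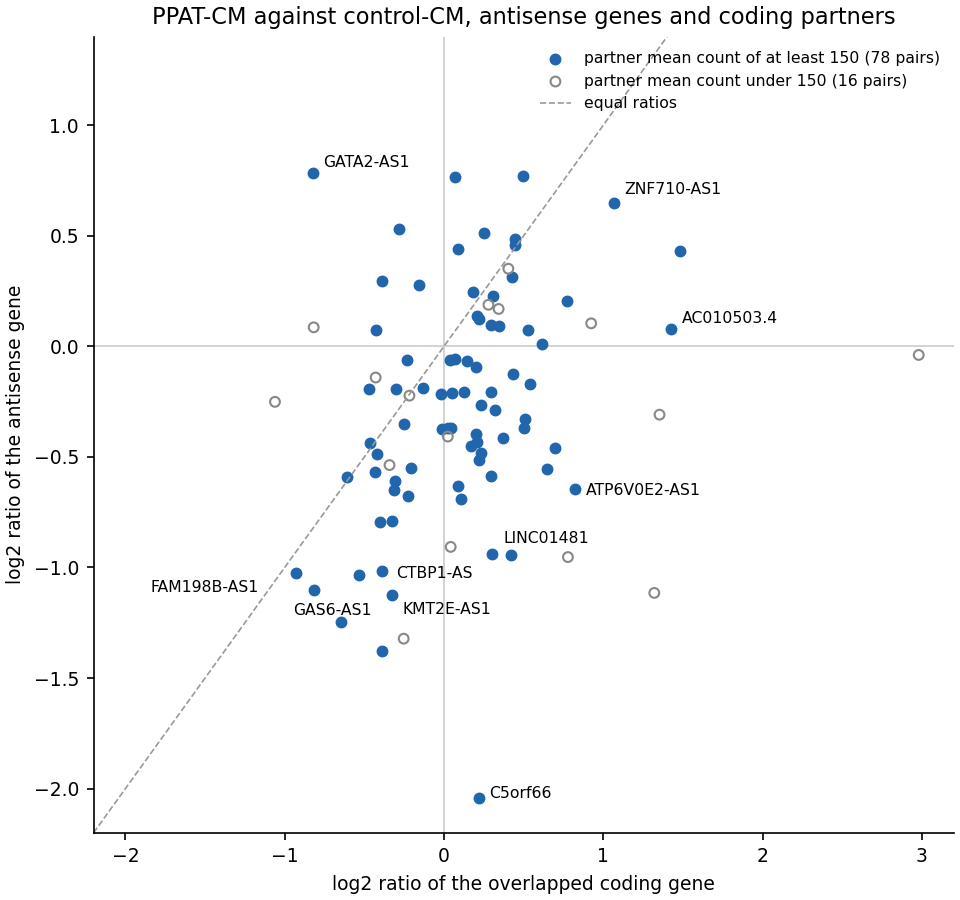
Log2 ratio of TMM-scaled counts in PPAT-CM against control-CM for 94 antisense genes (y axis) and the coding genes they overlap (x axis); filled points have a partner averaging at least 150 reads (78 pairs), open points fewer (16 pairs), and the dashed line marks equal ratios. Of the 94 points, 74 lie below the dashed line, with C5orf66 lowest at -2.04, GATA2-AS1 at 0.78 on the left and FAM198B-AS1 close to the line; with library totals all points would move by the same amount along both axes.

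The arrangement of the pair was set beside the ratio, with no test of the difference. As background for the counts that follow, 45.97% of all genes with a mean of at least 150 reads lay below 0. At least 2-fold lower were 1.72% of them. The 20 members inside a coding gene had a median log2 ratio of -0.40 in PPAT-CM against control-CM and 19 of them lay below 0. The 52 head-to-head members had a median of -0.21 with 32 below 0, the 21 tail-to-tail members -0.25 with 14 below 0, and the 7 that hold a coding gene -0.09 with 4 below 0. The 84 members with shared exonic bases had a median of -0.24 with 10 at least 2-fold lower, the 16 with overlapping spans alone -0.35 with 2, and the 16 neighbours -0.15 with 1. The 28 single-exon members had a median of -0.21, with 1 at least 2-fold lower, and the 90 with more exons -0.26, with 12. In promoter letters, 14 of the 32 members at least 1.5-fold lower had an entry. They held a GC box in 10 (71.4%, against 68.4% of all 76 member windows) and a median of 35 CpG dinucleotides (28 over the 76).

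Levels per kilobase of exon are given as a description, since the members were chosen by their mean count and their partners were not. The median over the 100 pairs was 5.383 scaled CPM per kb for members and 6.813 for partners in PPAT-CM, 6.431 and 6.642 in PVAT-CM, and 6.53 and 6.11 in control-CM. The member was the higher of its pair in 50 pairs in PPAT-CM, 56 in PVAT-CM and 56 in control-CM. These levels divide by all exonic bases, shared ones included. Where reads from shared bases were not counted, the level of a gene with many of them is too low, for members and partners alike. AL118506.1, with 198, 208 and 231 reads in PPAT-CM, PVAT-CM and control-CM, shares 1491 of its exonic bases with ABHD16B. ABHD16B was listed at 0 in all 3 libraries, but all of its 1491 exonic bases lie inside AL118506.1, and rows with no exonic base of their own were nearly all at 0 in this table, as shown next, so this 0 sets no limit on its level. The pair is nevertheless among the 100 above, with the member as the higher. TMEM147-AS1, with 177, 153 and 181 reads, shares 924 with GAPDHS, which had 4, 0 and 1. GAPDHS has 1519 exonic bases, so its low counts are uncertain for the same reason.

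Whether reads were assigned by strand is not given in the sources used here, and without strand the reads from bases that an antisense gene shares with its partner cannot be told apart. The table itself was therefore examined for antisense rows with no exonic base of their own. Of 310 antisense rows lying wholly inside coding exons of the other strand, 306 had 0 reads in all 3 libraries. Where the coding gene averaged at least 1000 reads this held for 67 of 68 rows (98.53%), the highest mean being 1.333 reads. Beside equally abundant coding genes, 24 of 98 rows (24.49%) with 50% to under 100% of their bases inside coding exons were at 0, 28 of 365 (7.671%) with a smaller share, and 35 of 235 (14.89%) with none. Other noncoding and pseudogene rows wholly inside exons of such coding genes were at 0 in 20 of 20 cases on the same strand and in 20 of 20 on the other strand. No setting of the counting was inferred from these values. They also do not cover unspliced reads of a coding gene. Without strand, such reads could be counted to an antisense gene that lies in an intron, such as AC092535.4 in SPON2. Their part in the levels and ratios of members inside a coding gene was not tested. C5orf66 was the only member with more than 50% of its exonic bases inside coding exons, and 1682 of its bases lay outside those of H2AFY.

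**Figure D5:**
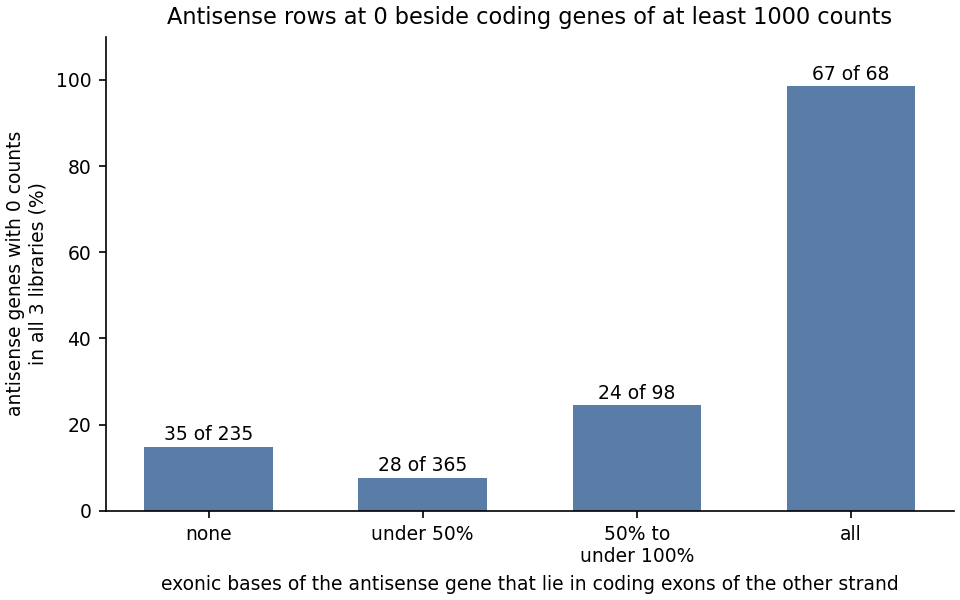
Percent of antisense rows with 0 reads in all 3 libraries (y axis) beside coding genes of at least 1000 reads, by the share of their exonic bases that lies in coding exons of the other strand (x axis); the numbers above the bars are rows at 0 of all rows. The bar for rows wholly inside coding exons stands at 67 of 68, and the others at 35 of 235, 28 of 365 and 24 of 98.

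The RNA decay genes were examined because the exosome and its cofactors turn over divergent and antisense transcripts. Of the 30 listed genes (exosome subunits, NEXT and PAXT cofactors, exonucleases, decapping and nonsense-mediated decay factors), 29 averaged at least 150 reads. In PPAT-CM against control-CM 1 of the 29 was higher by 2-fold or more (all genes 2.99%) and 0 were lower by as much (all genes 1.72%), with a median log2 ratio of 0.08 and a range of -0.69 to 1.25. The higher one was RBM7, the RNA-binding subunit of NEXT, with 518 reads in PPAT-CM, 165 in PVAT-CM and 179 in control-CM. It was 1.25 higher on the log2 scale in PPAT-CM than in control-CM and 1.28 higher than in PVAT-CM. The other NEXT subunits listed, named after their values were seen, did not share this. MTREX had a log2 ratio of 0.01 and ZCCHC8 one of -0.47 in PPAT-CM against control-CM. In that comparison 10 of the 29 genes lay below 0. In PVAT-CM against control-CM none of the 29 was past 2-fold on either side (median 0.02), and in PPAT-CM against PVAT-CM RBM7 was again the only one (median -0.07). The part of these genes in the levels of the antisense genes was not tested.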

How the data were processed

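RNA from LNCaP cells, 1 library for each of 3 media, was turned into libraries by a KAPA mRNA HyperPrep protocol, as the labels state. The authors deposited raw read counts per gene, whole numbers that were not normalized, for the 3 libraries. FastQC, Trimmomatic, HISAT2, featureCounts, edgeR and GRCh38 are named in the submitters' processing notes; the sources used here give no version, annotation release or strand setting. Of 58884 rows, 58611 matched GENCODE 29 by gene ID, and gene types, exons and overlaps come from it; 38 members carry a different symbol in later annotation. Deposited counts were divided by library totals times TMM factors (edgeR 4.0.16 in R 4.3.3, all rows), and log2 ratios used a pseudocount of 0.5. With 1 library per medium no test was run. The 95% interval of a ratio is the exact conditional binomial (Clopper-Pearson) one, and that of a member minus its partner the conditional interval of the odds ratio; both treat reads as independent and the scaling as fixed, and cover counting error only. A partner with 3 reads or fewer in both libraries gave no ratio. The calculations were tested on simulated data. Named members were all those past 2-fold in any comparison, the 6 with the highest mean count, the 4 with the most shared exonic bases, the 5 pairs with the largest difference, the 5 pairs past 1.5-fold on the same side and the 3 on each side of the count minimum; the 5 largest differences among pairs whose partner averaged at least 150 reads were added after seeing the data, as were other names marked so. The results of some named genes are not reported here. Members and lists were chosen with earlier results of these data known. Alternatives covered 5 other scalings, pseudocount, fold and count minimums.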

Additional observations from a re-analysis of the deposited data

How the results depend on the processing

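No paired analysis was possible because each medium had 1 library, and for the same reason no library could be left out. With DESeq2 size factors, upper quartile factors, TMM without mitochondrially encoded rows, TMM from protein-coding rows or a pseudocount of 5, the member medians kept their sign in all 3 comparisons and the counts past 2-fold stayed within 1.5 times. With library totals alone the median became 0.003 in PPAT-CM against control-CM and 0.096 in PVAT-CM against control-CM, and the counts in PPAT-CM against control-CM became 3 higher (GATA2-AS1, AC009779.2 and LPP-AS2) and 4 lower (C5orf66, AC096677.1, MELTF-AS1 and AC024060.1), where TMM gave 0 and 13; PPAT-CM against PVAT-CM had 3 lower in place of 6, and 2 pairs past 1.5-fold on the same side in place of 1. That scaling moves every ratio by the same amount, which for all genes in PPAT-CM against control-CM took the median to 0.279. A 1.5-fold rule gave 5 higher and 32 lower members in PPAT-CM against control-CM, 3 and 5 in PVAT-CM against control-CM, and 4 and 22 in PPAT-CM against PVAT-CM. A 3-fold rule left 1 lower in PPAT-CM against control-CM, and 0 higher and 0 lower in PPAT-CM against PVAT-CM. The share of all genes past 3-fold was not worked out, so these counts have no background beside them. Of 397 antisense genes with a minimum mean of 50 reads, 7 were higher and 50 lower past 2-fold in PPAT-CM against control-CM (all genes 3.93% and 2.74%), 1 and 4 in PVAT-CM against control-CM (0.465% and 0.441%), and 12 and 25 in PPAT-CM against PVAT-CM (2.45% and 1.47%). Of 2393 with a minimum of 1 they were 404 and 504, 386 and 451, and 450 and 450 in the same order (all genes between 9.6% and 12.9%). Of 17 with a minimum of 500, 2 were lower in the first (1.49%), and 0 higher (1.16%) and 1 lower (0.814%) in the last. The members without exonic overlap were the 16 with overlapping spans alone, the 16 neighbours and the 2 with neither. They held 3 of the lower in the first comparison (all genes 1.72%), and 0 higher (all genes 1.6%) and 1 lower (all genes 0.895%) in the last. Among overlapping pairs, 0 had both genes at least 2-fold from control-CM on the same side in PPAT-CM. The median difference between member and partner kept its side in all 27 alternatives run. Of the recomputed ratios of single named members, 555 moved by less than their counting interval and 21 moved further, all with library totals. Depth limits single ratios: the 1.883-fold lower level of MINCR in PPAT-CM than in control-CM has an interval of 1.493 to 2.381, and the 1.275-fold higher level of FGD5-AS1 one of 1.2 to 1.354.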
